A study of Mus musculus with 8 samples.

Results

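The adipogenic transcription factors described here are 10 genes, the nuclear receptors Pparg, Ppara, Rxra, Esrra and Esrrg, the C/EBP family members Cebpa, Cebpb and Cebpd, the early B cell factor Ebf1 and the Krüppel-like factor Klf15. They were chosen by name, with earlier results of these data known. The deposited count table lists 31053 genes, of which 8930 had enough reads to be tested, and all 10 were among the genes tested. Gene expression was measured by bulk RNA-seq in whole brown adipose tissue (BAT) of 4 WT mice and 4 Ucp1Δ/Δ mice. Ucp1Δ/Δ mice, whose libraries are labelled ATGLKO, carried floxed Pnpla2 alleles and a Cre recombinase driven by the Ucp1 promoter. Pnpla2 encodes ATGL, the lipase that starts the breakdown of stored triglyceride, and the deletion is limited to cells that have switched on Ucp1, so that macrophages, vessels and stroma of the same tissue keep the gene. The strain is labelled C57BL6/J and the age 10 weeks in both groups, and each library is labelled as 1 mouse. A legend of the paper gives a younger age for this comparison. The label of the cell type names the stromal vascular fraction while tissue and source name brown adipose tissue. The summed level of 11 brown adipocyte markers, Ucp1 among them, was 14387 to 23659 CPM (counts scaled to a common library size) in WT and 10912 to 16183 in Ucp1Δ/Δ mice, and none of the 11 was at 0 in any mouse.

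Fat cell formation runs through a cascade of transcription factors. CEBPB and CEBPD act early and induce PPARG and CEBPA, which then maintain each other and the genes of the mature adipocyte, while EBF1 acts beside PPARG and KLF15 promotes adipogenesis and glucose uptake. PPARG and PPARA bind DNA as a pair with RXRA and respond to fatty acids and their derivatives. PPARA and the estrogen-related receptors ESRRA and ESRRG, which have no known natural hormone, drive genes of fatty acid oxidation and mitochondrial respiration, which brown fat uses to make heat.

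Sequences before the start sites are shown for the 2 receptors with lower transcript levels in Ucp1Δ/Δ mice, Ppara and Esrra, and for a start of Pparg that lies inside the gene, because they hold an NRF1 core or more than 1 C/EBP match. Windows of 250 bases before to 50 after each start were available from RefSeq on GRCm38.p6 for 9 of the 10 genes, Cebpd being the exception, and gave 16 windows. Each sequence below is the longest stretch before the start that no annotated exon covers, written along the strand of the gene, 5′ to 3′. Capitals mark matches on either strand to GCATGCGC (the core of the site of NRF1, a regulator of mitochondrial genes), GGGCGG (the GC box) and TTGCNNAA (a C/EBP site). The motifs were picked after these sequences had been seen.
Ppara, chr15:85735714-85735775, plus strand: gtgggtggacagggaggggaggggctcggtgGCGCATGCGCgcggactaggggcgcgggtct
Esrra, chr19:6921814-6922058, minus strand: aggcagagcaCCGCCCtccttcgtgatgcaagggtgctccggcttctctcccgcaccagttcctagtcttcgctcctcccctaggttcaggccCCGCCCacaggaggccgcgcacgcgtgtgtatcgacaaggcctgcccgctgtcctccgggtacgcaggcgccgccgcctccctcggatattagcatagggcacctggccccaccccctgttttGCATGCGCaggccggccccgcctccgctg
Pparg, chr6:115421816-115422065, plus strand: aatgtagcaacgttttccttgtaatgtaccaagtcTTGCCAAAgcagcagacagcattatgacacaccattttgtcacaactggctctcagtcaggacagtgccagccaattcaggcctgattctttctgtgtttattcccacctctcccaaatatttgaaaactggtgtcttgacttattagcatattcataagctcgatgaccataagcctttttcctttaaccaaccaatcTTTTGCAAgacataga

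The NRF1 core was found in 2 of the 16 windows, those of Ppara and Esrra, and in 2.71% of the 32851 windows of all genes. It began at position -34 from the Esrra start. In Ppara, matches on each strand overlap and begin at -31 and -29. The inner Pparg start held C/EBP matches that begin at -215 and -16, and the other C/EBP match lay before an Esrrg start, against 10.8% of all windows with this motif. GC boxes were in 9 of the 16 windows, from 7 of the genes, against 35.7% of all windows. AGGTCA, the element that nuclear receptors read, was in 3 windows, of Pparg and Rxra, against 16.3% of all windows. These matches describe the letters only. Because the motifs were picked after the sequences had been seen, the shares of all windows are no test of enrichment. The counts are per gene and cannot tell the starts or isoforms of Pparg apart.

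The libraries held 2017697 to 3115956 counts in WT and 2240612 to 2941799 in Ucp1Δ/Δ mice, of which 38.4% to 45.6% in each mouse were mitochondrially encoded. At this depth 3 counts correspond to 0.933 to 1.53 CPM. The deleted gene checked the labels, since Pnpla2 fell from 2913 ± 191 CPM (SD, n = 4) in WT to 474 ± 59.2 CPM (n = 4) in Ucp1Δ/Δ, which left 16.3% of the WT level (log2FC -2.62, SE 0.17, adjusted p = 1.97e-07, quasi-likelihood test of edgeR, Benjamini-Hochberg adjusted over all genes tested, as for every adjusted p here). Across the tissue, 21.0% of the genes tested passed an adjusted p of 0.05, 13.3% with higher and 7.63% with lower levels in Ucp1Δ/Δ mice. Of the 11 brown adipocyte markers 4 fell, Cidea, Plin1, Adipoq and Elovl3, and 7 did not pass (median log2FC -0.39). Markers of other cells moved with genotype. Of 11 macrophage markers tested, 10 rose, with summed levels of 113 to 177 CPM in WT and 1077 to 1751 in Ucp1Δ/Δ. Of 9 stromal progenitor markers tested, 8 rose (367 to 484 against 1029 to 1814 CPM), as did Tie1 alone of 8 endothelial markers (242 to 313 against 316 to 374 CPM for the sum). None of 9 skeletal muscle markers passed edgeR's test (0 also at an unadjusted p under 0.05), but their sum ran from 28.1 to 1634 CPM within WT and from 75.6 to 2131 CPM within Ucp1Δ/Δ mice, highest in WT1, WT4, KO2 and KO4 (KO1 to KO4 stand for Ucp1Δ/Δ mice 1 to 4). In bulk tissue fewer cells of a type and less RNA per cell cannot be told apart, and the part of these other cells in the results below was not tested.

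**Figure D1:**
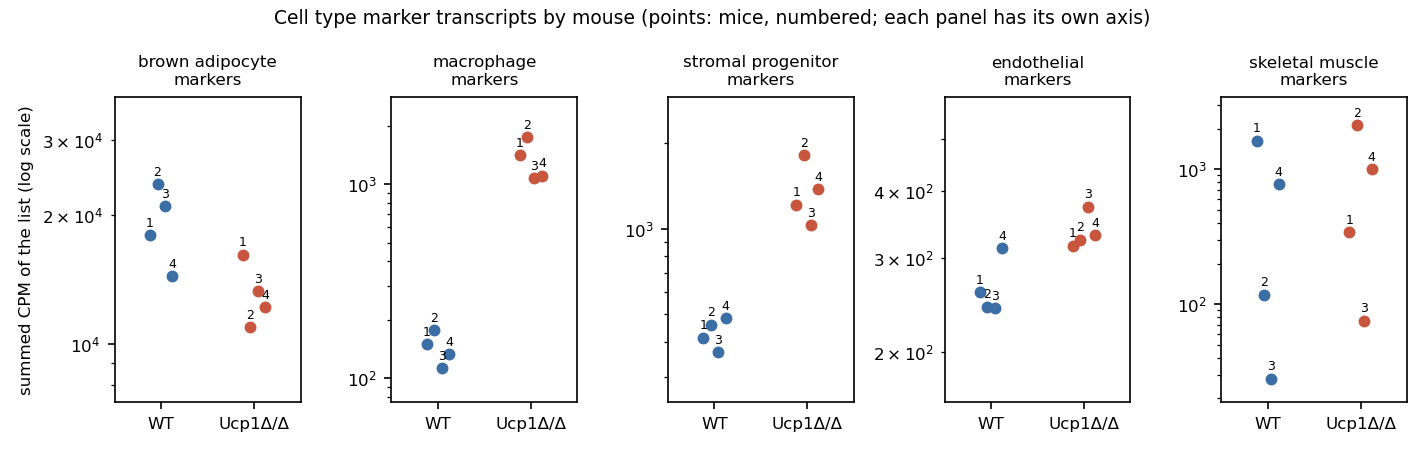
Summed CPM of the marker genes of 5 cell types in each mouse, on log axes that differ between panels, with 1 numbered point per mouse. Macrophage and stromal sums were higher in all 4 Ucp1Δ/Δ mice than in any WT mouse, while skeletal muscle sums spread widely within both genotypes.

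Of the 10 factors, Cebpd rose, Ppara and Esrra fell, and 7 did not pass the test. The 3 called make 30% of the factors, beside 21.0% of all genes tested. The log2FC was above 0 for 5 factors and below 0 for 5, with a median of -0.13 beside -0.0087 over all genes tested. Only Esrra showed no overlap between the mice of the 2 genotypes, beside 23.7% of all genes tested without overlap (9.37% lower, 14.4% higher).

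**Figure D2:**
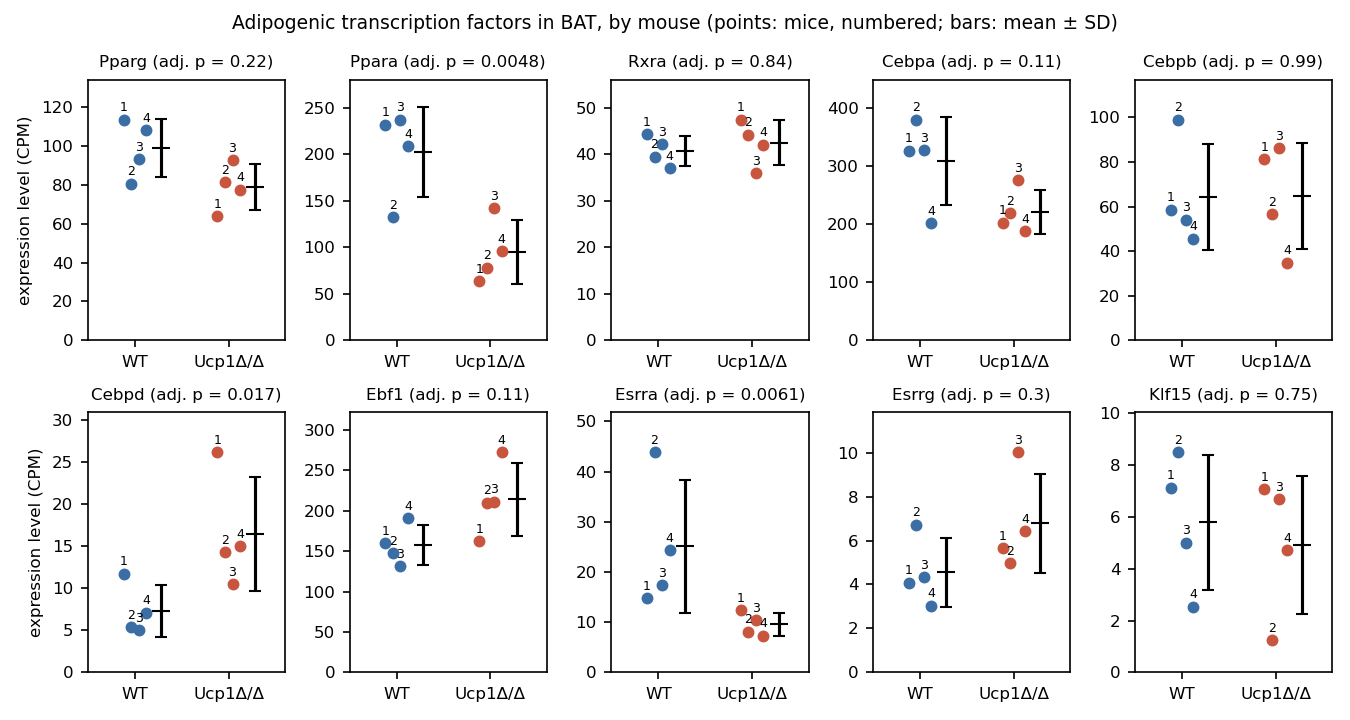
Expression level (CPM, linear axes from 0 that differ between panels) of each factor, with 1 numbered point per mouse and bars for mean ± SD of 4 mice per genotype. Esrra levels were lower in all Ucp1Δ/Δ mice than in any WT mouse, and Ppara and Cebpd each overlapped through 1 mouse of each genotype.

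**Figure D3:**
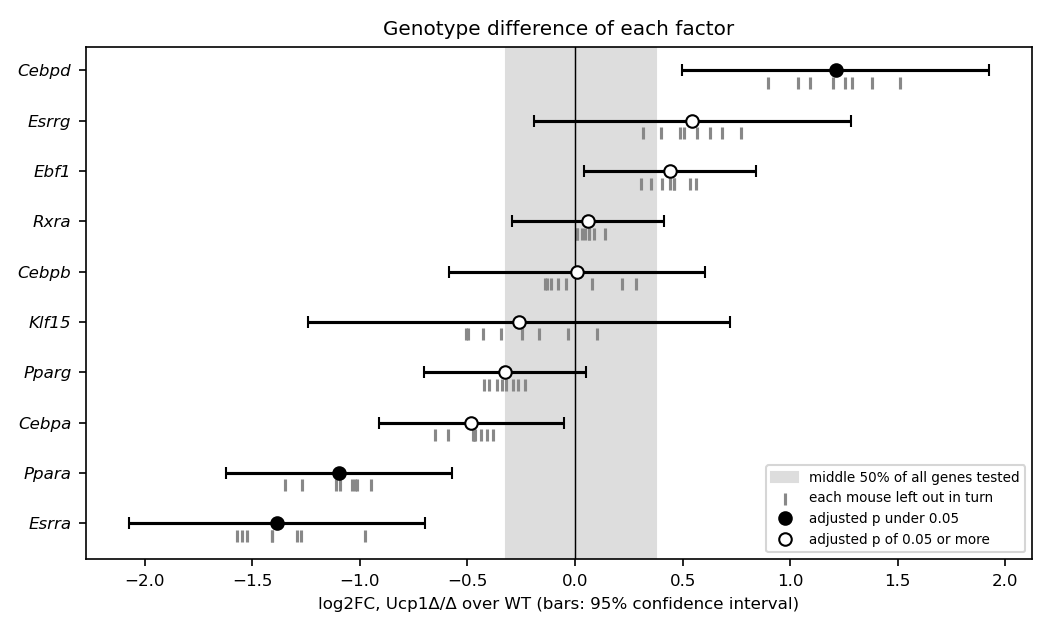
log2FC of each factor, Ucp1Δ/Δ over WT, with its 95% confidence interval, the estimates with each mouse left out in turn as ticks, and the middle 50% of all genes tested as a grey band from -0.32 to 0.37. The intervals of Ppara and Esrra lie wholly below the band and that of Cebpd wholly above it.

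Among the PPARs and their partner, Ppara (15:85734983-85802819, plus strand, GRCm38), the receptor that turns on fatty acid oxidation genes, was the one that differed. Its levels in WT mice 1 to 4 were 232, 132, 237 and 209 CPM, from 295 to 711 counts. In Ucp1Δ/Δ mice 1 to 4 they were 63.3, 78.1, 142 and 96.1 CPM, from 179 to 340 counts. KO3 alone lay above the lowest WT mouse, WT2, and the other Ucp1Δ/Δ mice lay below all WT mice. The mean fell from 203 ± 48.6 to 94.9 ± 34.2 CPM (SD, n = 4 each), which is 46.8% of WT. The log2FC was -1.10 (SE 0.25, 95% CI -1.62 to -0.57, edgeR adjusted p = 0.00476) and ran from -1.35 to -0.95 when mice were left out in turn, with adjusted p no higher than 0.0245. In the 4 mice with the least skeletal muscle transcript, WT2, WT3, KO1 and KO3, the log2FC of Ppara was -0.85 (edgeR adjusted p = 0.163).

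Pparg (6:115360951-115490399, plus strand), the receptor that fat cells need to form and to persist, measured 114, 80.6, 93.5 and 108 CPM in WT mice. Ucp1Δ/Δ mice measured 64.0, 81.5, 92.8 and 77.7 CPM. KO2 and KO3 lay within the WT range and KO1 and KO4 below it, so that means of 99.1 ± 15.0 and 79.0 ± 11.9 CPM did not differ beyond the test's threshold (log2FC -0.33, 95% CI -0.70 to 0.050, edgeR adjusted p = 0.219). That interval reaches from a loss to a slight gain and overlaps the interval of Ppara (-1.62 to -0.57). Rxra (2:27676440-27762957, plus strand), the shared partner of both PPARs, had the narrowest spread of the 10 relative to its mean (CV 7.87% in WT and 11.4% in Ucp1Δ/Δ mice). Counting alone would give a CV of 10.3% and 9.33% at its read numbers, so the spread is near that of counting. WT mice ran from 37.0 to 44.4 CPM and Ucp1Δ/Δ mice from 35.9 to 47.4 CPM (log2FC 0.060, 95% CI -0.29 to 0.41, edgeR adjusted p = 0.843).

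The balance of the PPARs was also read within each mouse. The log2 difference between Pparg and Ppara was -1.02, -0.71, -1.34 and -0.94 in WT mice 1 to 4 and 0.016, 0.061, -0.61 and -0.30 in Ucp1Δ/Δ mice 1 to 4. All Ucp1Δ/Δ values lay above all WT values, a shift of 0.79 on the log2 scale (SD 0.26 in WT and 0.31 in Ucp1Δ/Δ, n = 4 each). The 2-sided exact permutation p was 0.0286, the smallest that 4 against 4 mice allow, and 0.0571 after Benjamini-Hochberg adjustment over the 6 ratios compared, which misses the threshold. Because levels of different genes were not scaled to transcript length, only the change of a ratio between genotypes is read here, not its level. The ratio of Pparg to Rxra shifted by -0.38 with overlapping groups (exact permutation p = 0.171).

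**Figure D4:**
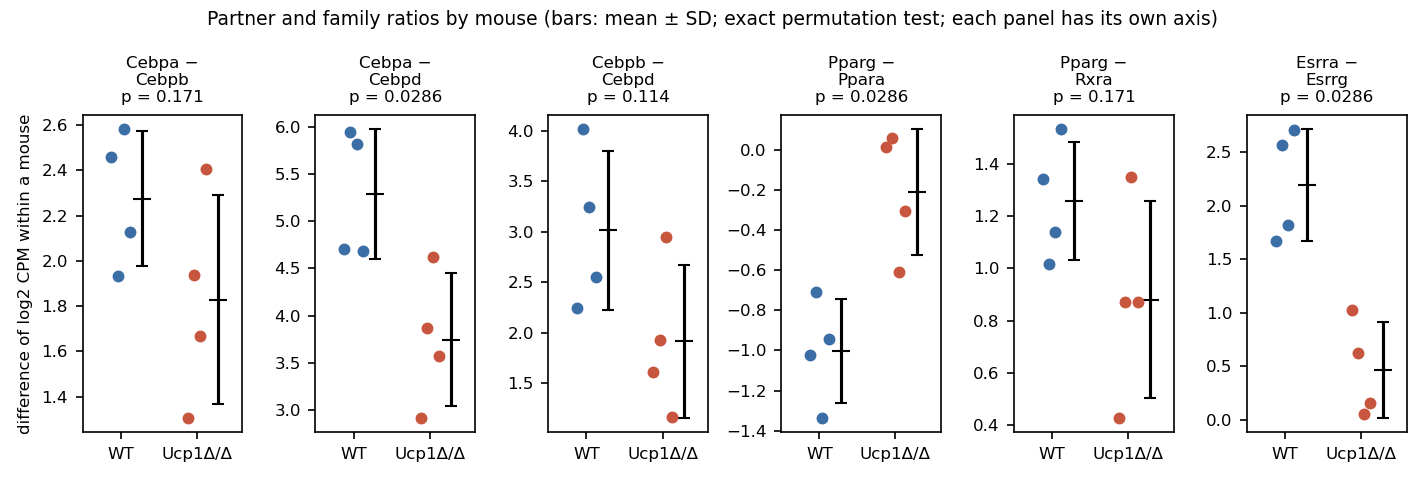
Difference of log2 CPM between 2 factors within each mouse, for 6 pairs of family members or partners, with mean ± SD of 4 mice per genotype on axes that differ between panels. The genotypes do not overlap for Cebpa and Cebpd, for Pparg and Ppara, and for Esrra and Esrrg.

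Of the estrogen-related receptors, Esrra fell and Esrrg did not pass the test. Esrra (19:6910977-6921813, minus strand), which drives respiratory chain and oxidation genes, measured 14.8, 43.9, 17.4 and 24.3 CPM in WT mice, from 29, 98, 52 and 48 counts. Ucp1Δ/Δ mice measured 12.4, 8.09, 10.4 and 7.30 CPM, from 35, 26, 25 and 17 counts. All 4 Ucp1Δ/Δ mice lay below all WT mice, and WT2 stood well above the other WT mice. The mean fell from 25.1 ± 13.2 to 9.55 ± 2.31 CPM, 38.1% of WT (log2FC -1.38, SE 0.32, 95% CI -2.07 to -0.70, edgeR adjusted p = 0.00611). Without WT2 the log2FC was -0.98, the smallest of the leave-one-out estimates, which reached -1.57, and every one kept an adjusted p of 0.0267 or less. In the 4 mice with least muscle transcript it was -1.37 (edgeR adjusted p = 0.0547). Exons of Trmt112 on the opposite strand share 73 bases with Esrra, all within the last 500 bases of the gene. Whether counting used strand is not given in the sources used here, so reads from those bases cannot be assigned to either gene. Trmt112 itself measured 15.0 ± 2.22 CPM in WT and 23.0 ± 6.08 in Ucp1Δ/Δ mice (log2FC 0.62, edgeR adjusted p = 0.0691).

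Esrrg (1:187608791-188214885, plus strand), the relative enriched in oxidative tissues, was sparse. WT mice had 8, 15, 13 and 6 counts (4.08, 6.72, 4.34 and 3.04 CPM) and Ucp1Δ/Δ mice 16, 16, 24 and 15 counts (5.66, 4.98, 10.0 and 6.44 CPM). KO3 was the highest, and the groups overlapped through WT2. The log2FC of 0.55 had a 95% CI of -0.19 to 1.28 (edgeR adjusted p = 0.301), and both no change and a doubling lie inside that interval. The log2 ratio of Esrra to Esrrg was 1.68, 2.57, 1.82 and 2.71 in WT mice and 1.03, 0.62, 0.055 and 0.16 in Ucp1Δ/Δ mice. It did not overlap between genotypes and shifted by -1.73, from 2.19 ± 0.52 to 0.47 ± 0.45 (n = 4 each, exact permutation p = 0.0286, adjusted over 6 ratios 0.0571).

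In the C/EBP family the early factor Cebpd (16:15887286-15891031, plus strand), which responds to hormones and inflammatory signals, rose. WT mice had 23, 12, 15 and 14 counts, or 11.7, 5.38, 5.01 and 7.09 CPM. Ucp1Δ/Δ mice had 74, 46, 25 and 35 counts, or 26.2, 14.3, 10.4 and 15.0 CPM. WT1 lay just above KO3, and KO1 was the highest of all. The mean went from 7.30 ± 3.09 to 16.5 ± 6.77 CPM (log2FC 1.21, SE 0.34, 95% CI 0.50 to 1.92, edgeR adjusted p = 0.0172). The call was lost without WT3 (log2FC 1.04, edgeR adjusted p = 0.0674) or without KO1 (log2FC 0.90, edgeR adjusted p = 0.0798). It held in the 4 mice with least muscle transcript (log2FC 1.84, edgeR adjusted p = 0.0242). Spidr on the opposite strand shares 562 exon bases with Cebpd but had only 35 counts over the 8 mice.

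Cebpb (2:167688915-167690418, plus strand), the other early factor, measured 58.6, 99.0, 54.1 and 45.6 CPM in WT and 81.4, 56.6, 86.1 and 34.8 CPM in Ucp1Δ/Δ mice. High and low mice occurred in both groups, and the means of 64.3 ± 23.7 and 64.7 ± 23.8 CPM differed by far less than the spread (log2FC 0.0090, 95% CI -0.58 to 0.60, edgeR adjusted p = 0.989). The sign of this estimate changed with scaling. Exons of Tmem189 on the opposite strand share 312 bases with Cebpb, none within its last 500 bases, and Tmem189 had 296 counts over the 8 mice (log2FC 0.41, edgeR adjusted p = 0.416). Cebpa (7:35119293-35121928, plus strand), the late factor that sustains Pparg and insulin sensitivity, measured 326, 380, 328 and 202 CPM in WT mice. Ucp1Δ/Δ mice measured 202, 219, 275 and 188 CPM. WT4 was as low as the Ucp1Δ/Δ mice while the other WT mice lay above all of them. The means were 309 ± 75.5 and 221 ± 38.4 CPM (log2FC -0.48, SE 0.20, 95% CI -0.91 to -0.054, edgeR adjusted p = 0.107), and only without WT4 did the difference pass (log2FC -0.65, edgeR adjusted p = 0.0139).

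The C/EBP factors were also set against each other within each mouse. The log2 ratio of Cebpa to Cebpd was 4.71, 5.95, 5.82 and 4.68 in WT and 2.91, 3.86, 4.62 and 3.57 in Ucp1Δ/Δ mice, with no overlap, though KO3 came close to WT4. The shift was -1.55, from 5.29 ± 0.69 to 3.74 ± 0.71 (n = 4 each, exact permutation p = 0.0286, adjusted over 6 ratios 0.0571). Cebpb to Cebpd shifted by -1.10 (exact permutation p = 0.114) and Cebpa to Cebpb by -0.45 (exact permutation p = 0.171), both with overlap.

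Ebf1 (11:44617317-45008091, plus strand), which commits progenitors to the fat lineage and is also expressed in stroma, measured 160, 147, 132 and 190 CPM in WT mice. Ucp1Δ/Δ mice measured 162, 210, 211 and 273 CPM. KO2, KO3 and KO4 exceeded every WT mouse and KO1 did not. The log2FC was 0.44 (SE 0.19, 95% CI 0.043 to 0.84, edgeR adjusted p = 0.113). Scaled by total counts alone it was 0.59 (edgeR adjusted p = 0.0393), but that scaling also moved the median over all genes tested, which was -0.0087, to 0.13. Klf15 (6:90462576-90475238, plus strand) rested on 5 to 19 counts in WT and 4 to 20 in Ucp1Δ/Δ mice. Its levels of 7.14, 8.51, 5.01 and 2.53 CPM in WT and 7.08, 1.24, 6.69 and 4.72 CPM in Ucp1Δ/Δ mice overlapped throughout (log2FC -0.26, 95% CI -1.24 to 0.72, edgeR adjusted p = 0.746), with an interval that holds changes of either sign.

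Each factor was also read against the mean log2 CPM of the 11 brown adipocyte markers. Several of these markers are also counted below among the targets of the factors. They are Adipoq, Fabp4, Plin1, Lipe and Cidea for PPARG and CEBPA, Pdk4 and Plin5 for PPARA, and Cox7a1 for the ERRs. The shifts therefore do not set a factor against adipocyte content alone. The marker mean itself was 9.21 ± 0.44 in WT and 8.69 ± 0.25 in Ucp1Δ/Δ mice, a shift of -0.53 (exact permutation p = 0.0571). This lower marker mean raises every shift below. Relative to the marker mean, Cebpd (shift 1.61), Esrrg (1.03) and Rxra (0.58) lay higher in all Ucp1Δ/Δ mice than in any WT mouse (exact permutation p = 0.0286 for each). They did not pass after Benjamini-Hochberg adjustment over the 10 factors (0.0952 for each). The log2FC of Rxra itself was only 0.060, so most of its shift is the lower marker mean. For Rxra the gap was narrow, since the highest WT mouse was at -3.45 and the lowest Ucp1Δ/Δ mouse at -3.44. Esrra had a shift of -0.70 (exact permutation p = 0.0857) and Ppara had a shift of -0.59 (exact permutation p = 0.286), both with overlapping groups. The shifts of Cebpa (0.066) and Pparg (0.20) were small beside their spread (exact permutation p = 0.771 and 0.686), and both changed sign when single mice were left out. Ebf1 had a shift of 0.95 (exact permutation p = 0.0571).

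The gene whose log2 CPM followed a factor most closely over the 8 mice was found among all genes tested, and is given for 8 of the factors as a description. Ppara was followed by Mlx (r = 0.981), itself lower in Ucp1Δ/Δ mice (log2FC -1.34, edgeR adjusted p = 0.00923). Cebpd was followed by Pck2 (r = 0.965), Pparg by Zscan26 (r = 0.971), Ebf1 by Pptc7 (r = 0.971) and Cebpb by Hbb-bt (r = 0.971), a globin gene of red blood cells. The lowest of the correlations given was that of Rxra, with Fam20b (r = 0.892). Esrrg was followed by Dgcr8 (r = 0.944) and Klf15 by Bloc1s5 (r = 0.960). All points share library and depth, and r includes the difference between genotypes.

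Of 15 relatives of the 10 factors tested, 3 rose, all Krüppel-like factors, and 12 did not pass. That is 20% called, near the 21.0% of all genes, and the median log2FC was -0.024. Klf6, a repressor of the preadipocyte gene Dlk1, went from 44.9 ± 18.4 to 159 ± 28.8 CPM (log2FC 1.82, edgeR adjusted p = 0.000152). Klf4, an early inducer of Cebpb, rose from 25.4 ± 5.44 to 47.0 ± 1.70 CPM (log2FC 0.88, edgeR adjusted p = 0.00303), and Klf7, which inhibits adipogenesis, rose with a log2FC of 0.77 (edgeR adjusted p = 0.0345). The Klf7 call was lost without WT1, WT3, KO2, KO3 or KO4 (edgeR adjusted p up to 0.125), and those of Klf6 and Klf4 held without any 1 mouse. Klf6 and Klf4 are also expressed by macrophages, whose markers rose in the same mice. The part of macrophages in the rise of Klf6 and Klf4 was not tested. Rxrg, a relative of Rxra, was at 15.3 ± 7.98 and 9.01 ± 3.86 CPM (log2FC -0.82, edgeR adjusted p = 0.146), and Ebf2, a selector of brown fat identity, at 128 ± 14.5 and 143 ± 14.3 CPM (log2FC 0.16, edgeR adjusted p = 0.529).

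Of 15 cofactors that nuclear receptors recruit, 2 rose, among them the coactivator Ncoa3 (log2FC 1.05, edgeR adjusted p = 0.0103), and 13 did not pass, with a median of 0.18. The 13.3% called lies below the 21.0% of all genes. Ppargc1a, the coactivator of PPARs and ERRs that cold induces, measured 38.0 ± 8.86 and 46.0 ± 9.26 CPM (log2FC 0.27, edgeR adjusted p = 0.407). Of 16 other regulators of brown fat, Bcl6 rose (log2FC 0.59, edgeR adjusted p = 0.0422) and Nfia, which opens chromatin at brown fat genes with Pparg, fell from 705 ± 93.0 to 500.5 ± 52.0 CPM (log2FC -0.50, edgeR adjusted p = 0.0409), and the median was -0.23. That is 12.5% called. The Bcl6 call was lost without WT1, WT3, KO1, KO3 or KO4 (edgeR adjusted p up to 0.153). The Nfia call was lost in 6 of the 8 fits that left out a mouse and held only without WT2 or WT4 (edgeR adjusted p up to 0.134). Of 11 early or inhibitory factors tested, Klf4 and the Wnt effector Tcf7l2 (log2FC 0.66, edgeR adjusted p = 0.0227) rose and Zfp467 (log2FC -0.93, edgeR adjusted p = 0.0400) fell, with a median of -0.034 and 27.3% called. The Zfp467 call held only without WT1 or WT4 and was lost in the other 6 such fits (edgeR adjusted p up to 0.125), and that of Tcf7l2 was lost without WT1, WT3 or KO2 (up to 0.0803). Prdm16, a coregulator of brown identity, was at 13.3 ± 9.61 and 12.2 ± 5.28 CPM (edgeR adjusted p = 0.855).

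Known targets of the factors differed widely in how many were called. The lists were chosen with earlier results of these data known, so the shares called describe them and are no test of the factors. Among 22 adipocyte targets of PPARG and CEBPA, 10 fell and 1 rose, which is 50% called beside 21.0% of all genes, with a median log2FC of -0.42. Agpat2 and Dgat2, enzymes of triglyceride synthesis, fell from 625 ± 252 to 137 ± 39.9 CPM (log2FC -2.19, edgeR adjusted p = 5.55e-05) and from 1369 ± 207 to 575 ± 132 CPM (log2FC -1.25, edgeR adjusted p = 0.000255). Hsd11b1, which regenerates active glucocorticoid, had a log2FC of -2.06 (edgeR adjusted p = 7.96e-05). Leptin (Lep), the hormone of stored fat, was the exception, at low counts in WT and 54.2 ± 10.8 CPM in Ucp1Δ/Δ mice (log2FC 4.89, edgeR adjusted p = 8.51e-06).

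The called targets of PPARA split in direction. Of 20 tested, 15 had a log2FC below 0 and 5 above, with a median of -0.45. At the threshold 5 fell and 3 rose, which is 40% called beside 21.0% of all genes. The number that fell was 10 without WT4, 10 by DESeq2's Wald test and 3 without KO2, while 3 rose whichever mouse was left out. The carnitine carrier Slc25a20 (log2FC -1.01, edgeR adjusted p = 0.000739) and Acot1 (log2FC -2.96, edgeR adjusted p = 0.000166), a thioesterase whose reads may be split with near-identical relatives, were among those that fell. Cpt1a rose from 7.51 ± 1.07 to 18.6 ± 2.14 CPM (log2FC 1.29, edgeR adjusted p = 0.000653), Vnn1 rose with a log2FC of 2.97 (edgeR adjusted p = 5.04e-05) and Fabp3, a fatty acid carrier, with a log2FC of 1.03 (edgeR adjusted p = 0.00968). Pdk4, a textbook PPARA target, stood at 117 ± 17.2 and 123 ± 18.7 CPM (log2FC 0.071, edgeR adjusted p = 0.822).

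Targets of the ERRs lay below 0 in 26 of 28 genes tested, with a median of -0.34 beside -0.0087 over all genes tested. The brown adipocyte markers lay below 0 in 9 of 11, with a median of -0.39, so this direction was not particular to ERR targets. The complex I subunit Ndufb5 (log2FC -0.73, edgeR adjusted p = 0.0128) and Ndufa4 of the respiratory chain (log2FC -1.12, edgeR adjusted p = 0.0131) were the only 2 ERR targets that passed, 7.14% beside 21.0% of all genes. That count depended on the setting, with 9 lower without WT4, 9 by DESeq2's Wald test, 7 when 1 count in any mouse sufficed, 5 by limma and 4 under size factors from DESeq2 or without WT2. Of 7 KLF15 targets, the glucose transporter Slc2a4 (log2FC -0.99, edgeR adjusted p = 0.000642) and Acss1 (log2FC -0.65, edgeR adjusted p = 0.0290) fell, with a median of -0.44 and 28.6% called beside 21.0% of all genes. The Acss1 call was lost without WT1, KO2, KO3 or KO4 (edgeR adjusted p up to 0.0967) and that of Slc2a4 held without any 1 mouse. Slc2a4 is also counted above among the PPARG and CEBPA targets that fell. In all, 1 to 3 of the 7 fell with mice left out. Of 10 acute phase genes with C/EBP sites, only Orm1 and Hp had enough reads to be tested. Orm1 fell (log2FC -0.71, edgeR adjusted p = 0.0370), a call lost without WT1, WT3, KO2, KO3 or KO4 (up to 0.128). Hp had a log2FC of -0.59 (edgeR adjusted p = 0.0758), so 1 of 2 was called, or 50% beside 21.0% of all genes. When 1 count in any mouse sufficed for testing, 3 genes of this list were called higher and 2 lower. DESeq2's Wald test called 1 higher and 2 lower, so the list had no single direction.

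**Figure D5:**
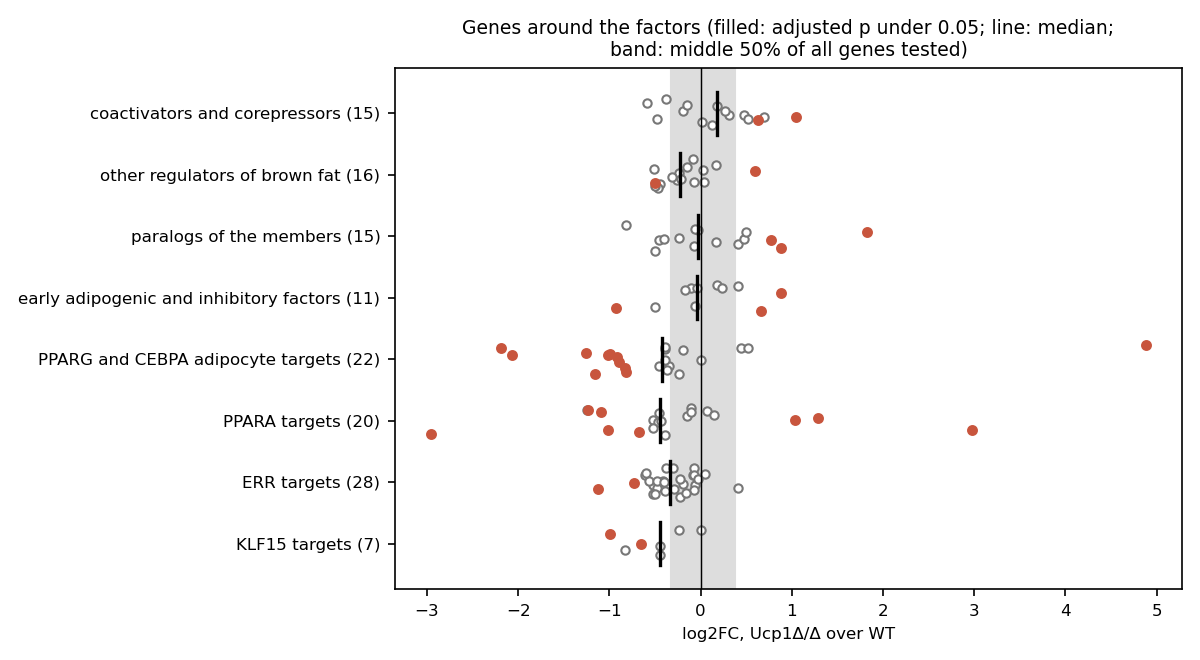
log2FC, Ucp1Δ/Δ over WT, of the genes tested in 8 lists around the factors, with list sizes in parentheses, filled points for an adjusted p under 0.05, a line at each median and the middle 50% of all genes tested in grey. Medians of the 4 target lists lie between -0.34 and -0.45, and those of the cofactor, regulator, paralog and early factor lists between -0.23 and 0.18.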

How the data were processed

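RNA from BAT of 4 WT and 4 Ucp1Δ/Δ mice was made into Digital mRNA-seq libraries. The authors deposited raw counts per Ensembl gene (mm10, equal to GRCm38) and a log2 table, which holds counts scaled by 1 factor for each mouse, with 1 added. The study's methods name bbduk, STAR and HTseq-counts, while the submitters' processing notes name Trimmomatic and HISAT2. Strand setting and annotation release are not given in the sources used here. Of 31053 IDs, 30934 matched a symbol.

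Counts were filtered with filterByExpr, scaled by TMM and tested with edgeR 4.0.16 (quasi-likelihood, Benjamini-Hochberg over 8930 genes) in R 4.3.3, after tests on simulated data. TMM library sizes went into CPM, and 2 was the prior count for log2 CPM. SE of a log2FC is its size divided by the square root of F. Ratios were tested by 2-sided exact permutation over mice (70 arrangements). Alternatives used DESeq2 1.42.0 and limma 3.58.1. The factors, lists and tests were chosen with earlier results of these data known. All 10 factors are named, and in each list the 3 genes of lowest adjusted p in the more frequent direction and up to 2 called in the other. Rxrg, Ebf2, Ppargc1a, Prdm16, Pdk4, Fabp3 and the overlapping Trmt112 and Spidr were added after their values were seen. Some genes that the rule names are not reported here. Positions are from GENCODE M21.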

Additional observations from a re-analysis of the deposited data

Results flagged for a closer look

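Among 64 groups of 4 mice checked for a mouse far from the others, 1 stood out, where chance alone gives about 3.2. It was WT3 for Esrrg relative to the brown adipocyte markers, at -7.10 against -6.75 in each of the other WT mice, so that the gap took a share of 0.982 of the whole range. Esrrg had 13 counts in that mouse.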

How the results depend on the processing

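Klf15, Esrrg and Cebpd rest on the fewest counts of the 10 factors. Over all genes, 1191 were higher and 681 lower in Ucp1Δ/Δ mice. At least 10 counts in every mouse gave 746 and 449, a filter that removed Esrrg and Klf15. The 4 mice with the least muscle transcript, a choice made after seeing the data, gave 760 and 265, and total counts only gave 404 lower. With mice left out in turn the counts were 945 to 1304 higher and 400 to 851 lower (400 without KO2). Factors called higher were 1, 2 with total counts only (Ebf1 0.59), and 0 to 1 with mice left out. Those called lower were 2, 0 in the low muscle mice, and 2 to 3 with mice left out. In the low muscle mice Ppara was -0.85 (SE 0.36) beside -1.10 (SE 0.25) in all 8 mice. Esrra was -1.37 (SE 0.42) beside -1.38 (SE 0.32). That fit compared only WT2 and WT3 with KO1 and KO3, so fewer mice and less muscle cannot be told apart there. Genes of the 9 lists of relatives, cofactors and targets called higher were 11, 4 in the low muscle mice, and 7 (without WT1) to 13. Those lower were 21, 36 by DESeq2's Wald test, and 14 (without KO2) to 37 (without WT4). Left-out ranges were -0.65 to -0.38 for Cebpa, 0.90 to 1.51 for Cebpd, -0.14 to 0.28 for Cebpb and -0.51 to 0.10 for Klf15 (above 0 without KO2). Cebpb was -0.0089 under size factors from DESeq2, -0.017 when 1 count in any mouse sufficed, -0.027 by the Wald test, -0.051 by limma on the deposited values and -0.0058 with the replicate block, and Klf15 was 0.069 in the low muscle mice. Of 32 genes of these lists called, 21 stayed called whichever mouse was left out. The cause of these changes was not tested. The 6 ratios between factors kept their direction with a prior count of 0.5, on the deposited log2 values and with each mouse left out.

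The replicate numbers showed no clear pairing of the mice (correlations of deviations -0.20 to 0.30, and 3 of 8 mice closest to their own number). These values were not set against those of unpaired mice, so they cannot decide whether mice were paired. With the replicate block 1719 genes were called in place of 1872, and Ppara (-1.12), Esrra (-1.31) and Cebpd (1.17) passed.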
